A study of Mus musculus with 2 samples.

Results

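The mitochondrial ribosomal protein genes are the nuclear genes whose symbols begin with Mrpl or Mrps followed by a digit. They were chosen by symbol alone from 21535 protein-coding mouse genes with a known strand, which gave 78 genes, namely 49 named Mrpl for the large and 29 named Mrps for the small subunit (the products of Mrps18a and Mrps30 nevertheless sit in the large one), on 17 chromosomes. Trimethylation of histone H3 at lysine 4 (H3K4me3) had been mapped by ChIP-seq in MEL cells, a mouse erythroleukaemia line of immortalised erythroid precursors. All samples belong to 1 group, 2 biological replicates kept in 2% dimethyl sulphoxide (DMSO) for 5 days, a textbook inducer of their maturation. Untreated cells were not analysed here, so what DMSO did to these genes cannot be read from the values below, and no test between conditions was possible.

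A mitochondrial ribosome translates the messages of the mitochondrial genome, which encode subunits of the respiratory chain and of ATP synthase. Its RNA is made inside the organelle, whereas its proteins are encoded in the nucleus, made in the cytosol and imported, so the nuclear promoters of the 2 subunits' proteins supply all protein parts. H3K4me3 marks the nucleosomes that flank active and poised promoters, above all those rich in CpG dinucleotides, and is usually depleted over the start site itself, where nucleosomes are cleared. In maturing erythroid cells, mitochondria carry steps of haem synthesis before they are removed.

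The authors deposited 48026 peaks for replicate 1 and 46950 for replicate 2 on the mouse build mm10. Read counts were not used here, so the depth behind each value is unknown and precision rests on the spread of the 2 replicates. A gene is called marked when its 5' end ± 1000 bp overlaps a peak in both replicates. For each replicate, the largest signal value among those peaks is taken as the gene's enrichment value, a number that the authors gave per peak on a scale that is not stated, and its domain is the run of peaks joined across gaps of up to 1000 bp. Means are given ± SD (n = 2). Of 8 genes typical of erythroid cells, 7 were marked, among them Klf1, Tal1, Alas2 and Slc4a1, while Gata1 was marked only when read at its RefSeq start. Of 4 genes typical of T cells, liver, pancreatic islets and heart (Cd3e, Alb, Ins2 and Myh6), 0 were marked.

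The 8 promoter stretches below are shown because the results turn on them. They were read from RefSeq on GRCm38.p6, the assembly behind mm10, and run 5' to 3' on the strand of the gene, from 100 bases before the RefSeq start to 30 bases from it (70 before for Mrps11). Capitals mark matches to the core motifs of NRF1 (GCGCATGC), ETS factors (CCGGAAG) and YY1 (AAGATGGC) on either strand. The first 4 genes are the members with no shared peak at the annotated 5' end, the next is the stretch between the paired members Mrps11 and Mrpl46, and the last 3 hold the most NRF1 matches (Mrpl32), an ETS and a YY1 match beside a head-to-head partner (Mrps27) and the lowest enrichment value (Mrps18a).
Mrpl22: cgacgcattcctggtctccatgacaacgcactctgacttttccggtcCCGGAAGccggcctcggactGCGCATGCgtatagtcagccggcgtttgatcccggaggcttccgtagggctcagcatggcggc
Mrpl24: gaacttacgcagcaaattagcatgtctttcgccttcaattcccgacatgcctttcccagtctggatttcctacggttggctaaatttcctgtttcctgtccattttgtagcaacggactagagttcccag
Mrps2: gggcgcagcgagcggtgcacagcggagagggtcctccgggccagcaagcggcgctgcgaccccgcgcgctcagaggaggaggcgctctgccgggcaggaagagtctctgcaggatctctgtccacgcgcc
Mrps23: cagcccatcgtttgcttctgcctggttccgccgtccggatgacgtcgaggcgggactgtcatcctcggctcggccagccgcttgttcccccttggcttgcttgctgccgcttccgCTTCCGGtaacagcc
Mrps11: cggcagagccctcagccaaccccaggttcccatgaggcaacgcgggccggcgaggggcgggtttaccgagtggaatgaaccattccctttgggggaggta
Mrpl32: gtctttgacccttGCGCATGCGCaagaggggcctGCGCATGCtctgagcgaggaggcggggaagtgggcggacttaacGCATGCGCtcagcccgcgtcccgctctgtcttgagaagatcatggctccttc
Mrps27: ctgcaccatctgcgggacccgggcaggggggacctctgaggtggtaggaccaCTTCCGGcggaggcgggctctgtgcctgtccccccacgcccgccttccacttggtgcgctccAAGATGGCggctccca
Mrps18a: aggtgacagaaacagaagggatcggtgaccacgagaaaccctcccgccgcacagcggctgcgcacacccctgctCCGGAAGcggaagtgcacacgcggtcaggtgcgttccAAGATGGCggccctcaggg
They lie at chr11:58171564-58171693 (plus strand), chr3:87919444-87919573 (plus strand), chr2:28467966-28468095 (plus strand), chr11:88204288-88204417 (plus strand), chr7:78783061-78783160 (plus strand), chr13:14613008-14613137 (minus strand), chr13:99344686-99344815 (plus strand) and chr17:46110904-46111033 (plus strand), in that order. The Mrpl22 stretch holds an ETS core 53 bases and an NRF1 core 33 bases before the start, whereas the Mrpl24 and Mrps2 stretches hold none of the 3 cores.

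H3K4me3 was found at nearly every mitochondrial ribosomal protein gene. Of the 78 genes, 74 (94.9%) were marked in both replicates, where 47.1% of all protein-coding genes were marked by the same rule. Replicate 1 alone had a peak at 75 of the genes and replicate 2 at 74. By symbol, 47 of 49 Mrpl genes and 27 of 29 Mrps genes were marked. The share also differed little with a partner nearby, since 43 of the 46 members without a head-to-head neighbour (93.5%) were marked against 41.9% of all genes without one.

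The unmarked members were Mrpl22, Mrpl24, Mrps2 and Mrps23, and all had peaks in both replicates at another start inside the gene. Mrpl22 and Mrpl24 encode proteins around the exit tunnel of the large subunit, Mrps2 a small-subunit protein with a bacterial counterpart and Mrps23 one without. Their RefSeq promoter starts lie downstream of the gene's annotated 5' end by 1621 bp in Mrpl22, 1413 bp in Mrpl24, 2115 bp in Mrps2 and 10282 bp in Mrps23. Read at those starts, Mrpl22 had enrichment values of 12.8 and 14.1 in replicates 1 and 2, a mean of 13.4 ± 0.891. Mrpl24 had 11.4 and 11.0, a mean of 11.2 ± 0.260, in a domain 1192 bp wide. Each of these genes therefore had values inside the range of the marked members, and neither replicate was the higher in all 4.

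Mrps2 had 11.1 and 14.4 at its RefSeq start, a mean of 12.8 ± 2.35. Mrps23 had 11.9 and 14.2, a mean of 13.1 ± 1.62, with a domain of 2362 bp. At the annotated 5' end of Mrpl22, replicate 1 alone had a peak, whose nearest base lay 940 bp away on the upstream side, while the nearest peak of replicate 2 lay 1004 bp away. With RefSeq starts in place of the gene's 5' end, 78 of 78 members were marked, where 48.8% of all genes were. This alternative was added after the unmarked genes had been seen. Of the members with a RefSeq start, 6 have it more than 1000 bp from the 5' end used, the other two being Mrpl18 and Mrpl36, which were marked at either place.

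The enrichment values, as means of both replicates, lay near the middle of those of all marked genes and spread less. The median enrichment value of the 74 marked members was 13.0, with quartiles of 11.6 and 14.4 and a range of 8.13 to 18.7. All marked genes had a median of 13.2, quartiles of 10.8 and 15.7 and a range of 2.50 to 31.9. The SD of the log2 values over genes was 0.27 in the members and 0.49 in all marked genes. Cut at the quartiles of all marked genes, from the lowest up, the members numbered 14, 28, 23 and 9, most of them between the quartiles. A mean below 8 was seen in 0 members and in 8.86% of all marked genes. A mean above 20 was seen in 0 members and in 4.20% of all marked genes. Single replicates of Mrps18a, Mrpl53, Mrpl3 and Mrpl14 nevertheless passed these limits. The limits were chosen with earlier results of these data known, so these counts are description only.

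**Figure D1:**
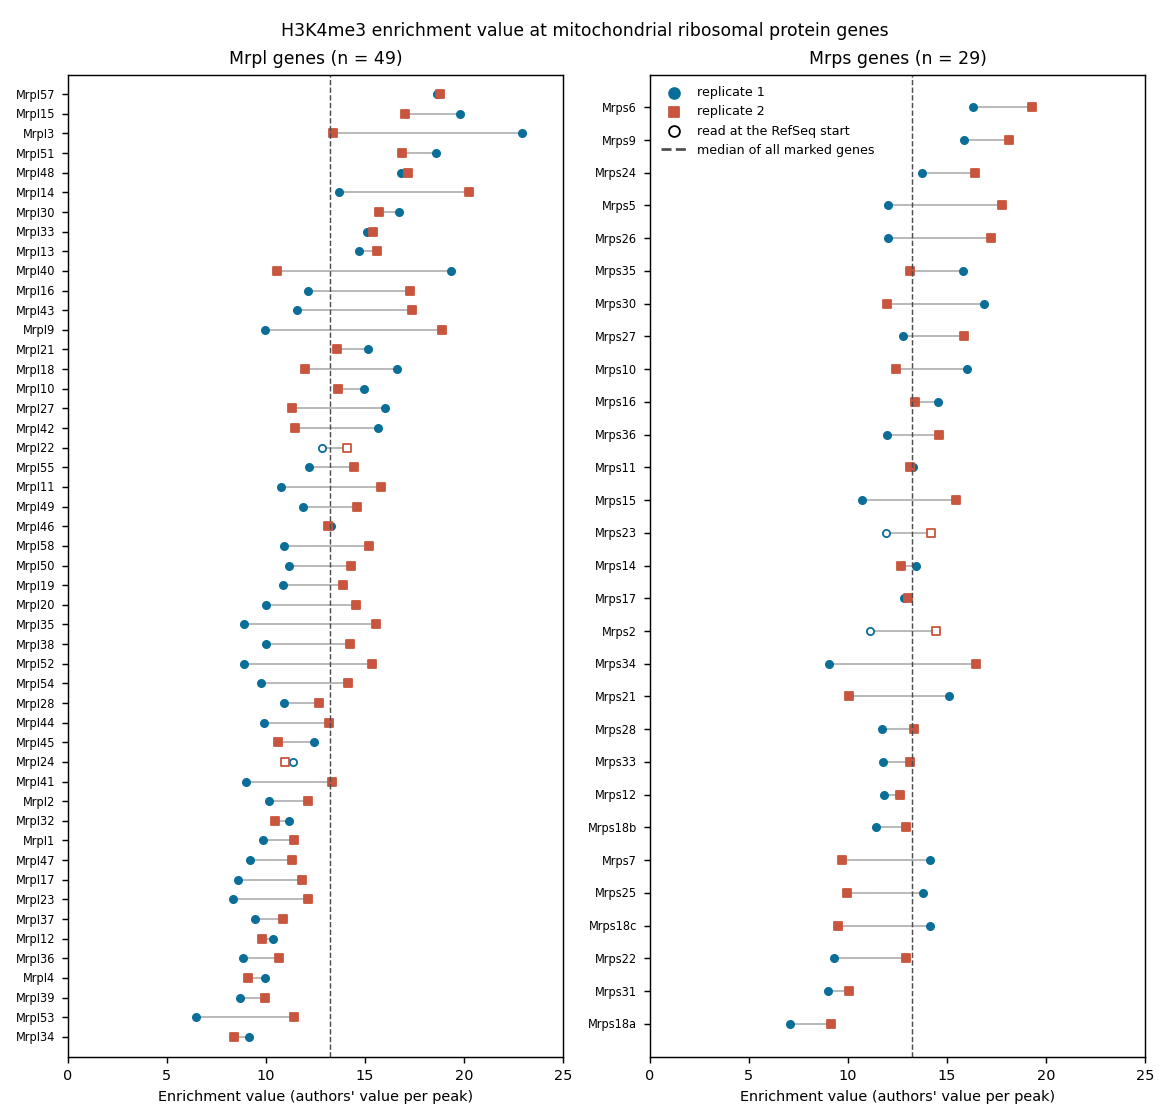
Enrichment value (authors' value per peak, x axis) of each Mrpl gene (left) and Mrps gene (right) in replicate 1 (circles) and replicate 2 (squares), sorted by mean, with the median of all marked genes (13.2) as a dashed line. Open symbols are the 4 members read at their RefSeq start; the means of the other members run from 8.13 (Mrps18a) to 18.7 (Mrpl57).

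Among the Mrpl genes, Mrpl57, whose protein has no bacterial counterpart, had the highest mean. Its values were 18.6 and 18.8, a mean of 18.7 ± 0.104, at percentile 92.1 of all marked genes. Mrpl15, which has a counterpart in the bacterial large subunit, had 19.8 and 17.0, a mean of 18.4 ± 1.94. Mrpl3, a protein near the peptidyl transferase centre, had 23.0 and 13.4, a mean of 18.2 ± 6.75. The replicates of Mrpl57 all but coincided, while those of Mrpl3 lay so far apart that its place among the highest rests on replicate 1.

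Mrpl51 had 18.6 and 16.9 (17.7 ± 1.20) and Mrpl48 had 16.8 and 17.2 (17.0 ± 0.228), both proteins found in the mitochondrial but not the bacterial ribosome. Mrpl14, a protein of the subunit interface, had 13.7 and 20.3 (17.0 ± 4.64). Mrpl30 had 16.7 and 15.7 (16.2 ± 0.716), and Mrpl33 had 15.1 and 15.4 (15.3 ± 0.217). Of these, Mrpl48 and Mrpl33 were the closest between replicates and Mrpl14 the farthest apart.

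In the small subunit the highest were Mrps6 and Mrps9, both with bacterial counterparts. Mrps6 had 16.3 and 19.3 (17.8 ± 2.10), and Mrps9 had 15.8 and 18.1 (17.0 ± 1.61). Both were higher in replicate 2. The start of Mrps6 lies 14 bp from that of Slc5a3, a myo-inositol transporter gene on the same strand, so the peak cannot be assigned to either gene alone.

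At the other end stood Mrps18a, with 7.10 and 9.16, a mean of 8.13 ± 1.46, at percentile 9.26 of all marked genes. It is 1 of the 3 mammalian versions of the bacterial protein S18, and despite its name its product sits in the large subunit. Mrpl34 had 9.17 and 8.40 (8.79 ± 0.545), but 17.8 in the authors' pooled set, 2.02 times as much, so its place among the lowest depends on the peak set. Mrpl53 had 6.47 and 11.4 (8.96 ± 3.51). The other versions of S18 were higher, with a mean of 12.2 ± 1.05 for Mrps18b and 11.8 ± 3.30 for Mrps18c, and the values of Mrps18a lay below those of Mrps18b in both replicates.

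Mrpl39 had 8.72 and 9.94 (9.33 ± 0.867), Mrps31 had 9.0 and 10.05 (9.52 ± 0.741), and Mrpl4 had 9.97 and 9.12 (9.54 ± 0.602). Mrpl36 had 8.83 and 10.7 (9.75 ± 1.29), and Mrpl12, the flexible stalk protein that contacts translation factors, had 10.4 and 9.83 (10.1 ± 0.381). In each of these 5 genes both replicates lay under the median of all marked genes, and their SDs overlap, so the order among them is not resolved. The lowest members were thus still marked in both replicates, and read at its RefSeq start Mrpl36 had a mean of 11.2 ± 0.951.

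Genes of either symbol had similar values. The median was 12.7 for Mrpl and 13.1 for Mrps genes, a gap smaller than the SD between replicates of many single genes. In replicate 1 the Mrps genes had the higher median, 12.8 against 10.9, and in replicate 2 the Mrpl genes did, 13.6 against 13.1, so the order turned between replicates. With Mrps18a and Mrps30 counted in the large subunit, the medians were 12.7 for the large and 13.1 for the small subunit. The 45 marked members with a bacterial counterpart had a median of 13.1 and the 29 without one 12.8. Members are not replicates of a condition, so these medians are descriptions and were not tested.

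Domains were of ordinary width, with few very wide or very narrow ones. The median over marked members was 2143 bp, against 2258 bp over all marked genes, and the range 1272 to 5365 bp against 148 to 16535 bp. A domain under 1000 bp was seen at 0 members and at 5.83% of all marked genes. One over 4000 bp was seen at 2 members (2.70%) and at 10.2% of all. These limits too were chosen with earlier results of these data known. Cut at the quartiles of all marked widths, from the narrowest up, the members numbered 18, 27, 16 and 13. The median was 2130 bp for Mrpl and 2156 bp for Mrps genes.

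**Figure D2:**
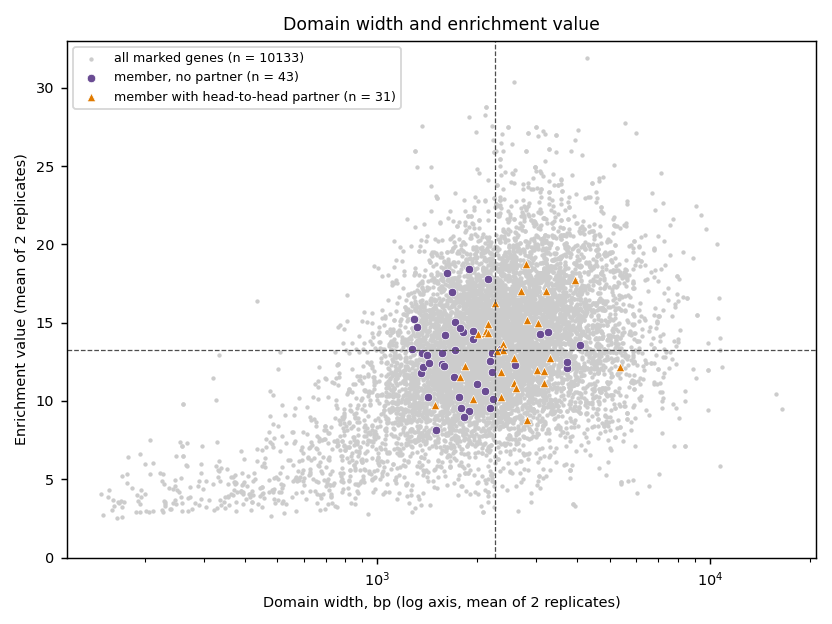
Domain width in bp (x axis, log scale) against enrichment value (y axis), both means of 2 replicates, for all 10133 marked genes (grey) and the marked members with (triangles, n = 31) and without (circles, n = 43) a head-to-head partner. Dashed lines are the medians of all marked genes, 2258 bp and 13.2; the members lie between 1272 and 5365 bp and between 8.13 and 18.7.

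The widest domain, 5365 ± 99.0 bp, was at Mrps18b and ran upstream, with edges at -4292 and -4437 bp in replicates 1 and 2, into its divergent neighbour Ppp1r10, a regulatory subunit of protein phosphatase 1. Mrpl42 followed with 4073 ± 218 bp, Mrpl51 with 3923 ± 187 bp, Mrpl52 with 3715 ± 1070 bp and Mrps28 with 3714 ± 956 bp. Mrps34 (3297 bp), Mrps30 (3262 bp), whose product sits in the large subunit, and Mrpl48 (3215 bp) completed the 8 widest. Mrpl52 and Mrps28 were much wider in replicate 2, whereas Mrps18b and Mrpl51 kept their width in both.

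The narrowest domains were those of Mrpl11 (1272 ± 170 bp), which encodes a protein of the factor-binding centre, Mrpl33 (1293 ± 37.5 bp), Mrpl16 (1314 ± 54.4 bp), Mrpl28 (1349 ± 391 bp), Mrps15 (1365 ± 48.1 bp) and Mrpl38 (1375 ± 310 bp). None of these 6 genes has a head-to-head partner. Their enrichment values stood at percentiles 50.9 (Mrpl11), 71.2 (Mrpl33), 66.1 (Mrpl16), 33.9 (Mrpl28), 48.2 (Mrps15) and 37.6 (Mrpl38) of all marked genes, on both sides of the middle.

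Many members shared their promoter with another gene. A head-to-head partner, meaning a protein-coding gene on the other strand whose 5' end lies within 1000 bp, was found for 32 of 78 members (41.0%), where 10.8% of all protein-coding genes had one. Of all marked genes 20.7% had one, which is the nearer yardstick for a set that is almost wholly marked. At the 5' ends used, the genes diverge from separate starts at 21 members, and at 11 the starts overlap. The median distance was 99 bp, and 17 members had their partner within 100 bp. The split depends on the start used. Measured from RefSeq starts instead, the partners of Mrpl2, Mrpl14, Mrpl21, Mrpl27, Mrpl37, Mrpl43, Mrpl57 and Mrps7 lie upstream. Those of Mrpl44 and Mrpl48 still overlap. In 31 of the 32 cases the partner was marked too, and member and partner then had the same strongest peak and the same domain in both replicates, so a value at these members belongs to the pair. Mrps2 and 1700007K13Rik, both unmarked at the 5' ends used, are the exception. Windows of ± 1000 bp around starts this close overlap, so a shared peak was largely fixed in advance by the definition. Of all genes with a partner, 89.8% were marked. The share of all pairs with the same peak was not computed.

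Mrpl46 and Mrps11, 1 gene of each subunit, are partners of each other, which makes 31 pairs in all. At the 5' ends used, 20 pairs are divergent and 11 have overlapping starts. Their 5' ends lie 42 bp apart on chromosome 7, and the printed Mrps11 stretch covers the 41 bases between them. Both therefore had the same values, 13.3 and 13.1, a mean of 13.2 ± 0.124, and the same domain of 2288 ± 38.2 bp. In the authors' pooled set the value of the pair was 8.33, 1.59 times lower than the mean of the replicates. No ETS, NRF1 or YY1 core lies in the printed stretch. The longer window of Mrps11, from 250 bases before its RefSeq start to 50 from it, does hold 1 YY1 core.

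Grouped by known role after the pairs were seen, several partners also serve mitochondria. How often the partners of all genes do so was not computed. Mrpl36 is paired with Ndufs6 and Mrpl47 with Ndufb5, both encoding subunits of respiratory complex I, Mrps12 with Sars2, the mitochondrial seryl-tRNA synthetase, Mrpl43 with Twnk, the helicase that copies mitochondrial DNA, and Mrps27 with Ptcd2, a mitochondrial RNA-processing protein. Mrpl49 faces Fau, whose product includes a protein of the cytosolic ribosome, across 191 bases. The mean values of these shared promoters were 9.75 ± 1.29 for Mrpl36, 10.3 ± 1.52 for Mrpl47, 12.2 ± 0.551 for Mrps12, 14.5 ± 4.11 for Mrpl43, 14.3 ± 2.18 for Mrps27 and 13.2 ± 1.91 for Mrpl49. These values spread over much of the members' range. The pair of Mrpl36 and Ndufs6 holds at the 5' ends used but not at RefSeq starts.

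Some other partners, also grouped after the pairs were seen, act on chromosomes or DNA, and a background share was not computed. Mrpl40 is paired with Hira, a histone chaperone, Mrpl51 with Ncapd2 of condensin and Mrpl57 with Ska3 of the outer kinetochore. Mrpl27 is paired with Eme1 and Mrps34 with Eme2, both partners of a DNA endonuclease, and Mrps18c with the helicase gene Helq. Outside this group, Mrpl21 is paired with Ighmbp2, another helicase gene, and Mrpl13 faces Mtbp, which encodes a protein that binds Mdm2. The zinc finger genes Zfp189 and Zfp661 face Mrpl50 and Mrps5. The 2 of these promoters with the highest values were Mrpl57 at 18.7 and Mrpl51 at 17.7.

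The remaining partners have roles in transport, proteolysis and elsewhere in the cell. Klc4, a kinesin light chain, is paired with Mrpl2, the Golgi GTPase gene Rab6a with Mrpl48, the Golgi adaptor gene Gga3 with Mrps7, the proteasome gene Psma2 with Mrpl32, and Mitd1, a cytokinesis gene, with Mrpl30. The other pairs were Lrrc46 with Mrpl10, Tmem63b with Mrpl14, Abhd8 with Mrpl34, Cyb5rl with Mrpl37, Pnpla7 with Mrpl41, Wdfy1 with Mrpl44 and Apba3 with Mrpl54. The distance ran from 9 bp between Mrpl54 and Apba3 to 892 bp between Mrpl41 and Pnpla7. With noncoding genes allowed, Mrpl55, Mrps21 and Mrps26 also gained a partner, which gave 35 members, against 16.8% of all genes. With RefSeq starts the count was 29, since Mrpl34, Mrpl36, Mrpl54 and Mrps2 lost their partner and Mrpl18 gained one, Tcp1, a subunit of the cytosolic chaperonin.

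Shared promoters had the wider domains, in the members as in all marked genes. The median width was 2394 bp for members with a partner and 1788 bp for those without, and over all marked genes it was 2605 and 2146 bp. The difference lay upstream. The domain reached a median of 1268 bp upstream of the 5' end where there was a partner and 595 bp where there was none, while the downstream reach was 1092 and 1164 bp. All marked genes had 1271 and 681 bp upstream. The enrichment value differed little, with a median of 13.2 for members with a partner and 12.9 for those without. As a set, the members had a partner more often than marked genes at large and a slightly lower median width.

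**Figure D3:**
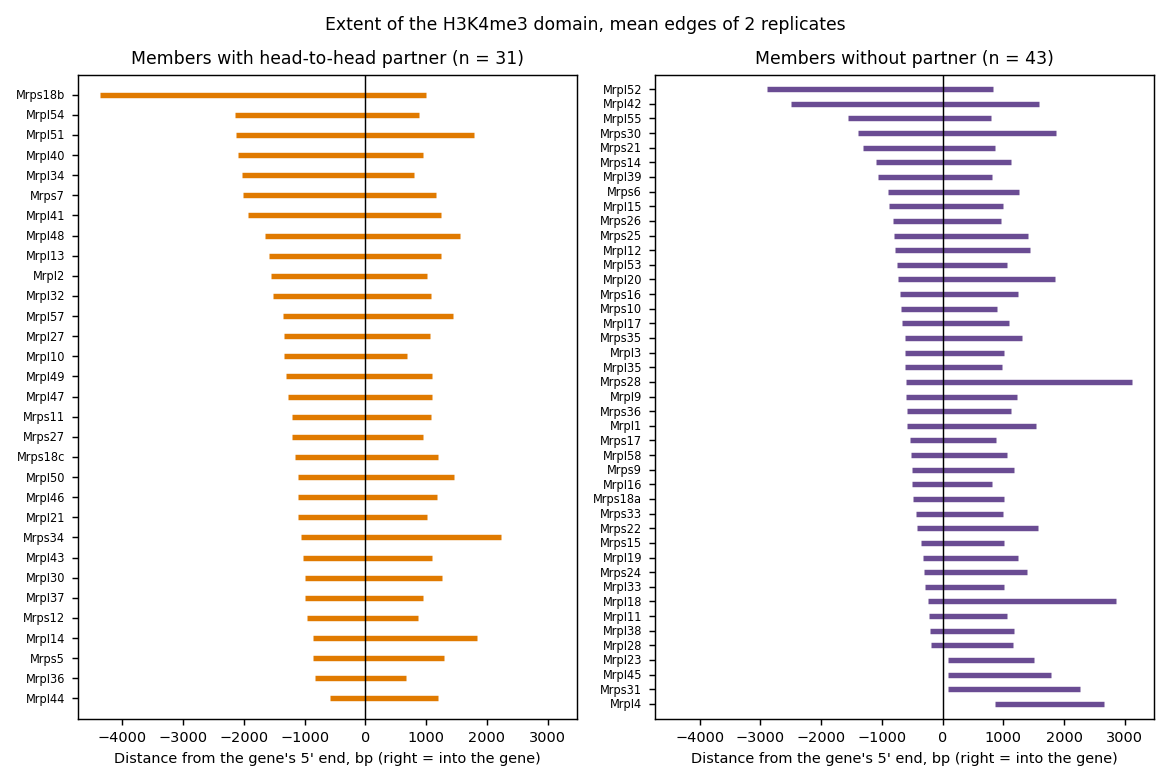
Extent of each marked member's domain relative to its 5' end (0 on the x axis, bp, right into the gene), as the mean edges of 2 replicates, for members with a head-to-head partner (left, n = 31) and without (right, n = 43), sorted by the upstream edge. Domains on the left reach a median of 1268 bp upstream and those on the right 595 bp. On the right, 4 genes (Mrpl23, Mrpl45, Mrps31 and Mrpl4) have the whole domain inside the gene, 5.41% of marked members against 5.85% of all marked genes.

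Measured from the 5' end used, the strongest peak lay more often downstream than upstream. The base of the 5' end was covered by a peak in both replicates at 36 of 74 marked members (48.6%), where 42.5% of all marked genes were covered. At 23 members (31.1%) no peak of either replicate covered it, against 35.7% of all marked genes, and at 17 (23.0%) peaks flanked it on both sides in both replicates, against 26.8%. The summit of the strongest peak lay downstream in both replicates at 46 members (62.2%), where 60.1% of all marked genes had it there. The median summit lay 156 bp into the gene, against 227 bp over all. These shares are near those of all marked genes.

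The 23 members with an uncovered 5' end in both replicates were Mrpl2, Mrpl4, Mrpl17, Mrpl23, Mrpl28, Mrpl30, Mrpl32, Mrpl36, Mrpl37, Mrpl38, Mrpl41, Mrpl44, Mrpl45, Mrps9, Mrps14, Mrps16, Mrps17, Mrps22, Mrps26, Mrps27, Mrps28, Mrps31 and Mrps33. The 15 with it uncovered in only 1 replicate were Mrpl12, Mrpl15, Mrpl19, Mrpl20, Mrpl35, Mrpl47, Mrpl50, Mrpl55, Mrpl58, Mrps12, Mrps18b, Mrps18c, Mrps24, Mrps30 and Mrps35. Among them are low members such as Mrpl4 and high ones such as Mrps9 and Mrpl15. The 5' end was uncovered in only 1 replicate at 15 of 74 marked members and at 2209 of all 10133 marked genes. Mrpl58 encodes a peptidyl-tRNA hydrolase that frees stalled ribosomes.

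Mrpl4, Mrpl23, Mrpl45 and Mrps31 had their whole domain downstream of the 5' end in both replicates. These are 5.41% of the marked members, near the 5.85% of all marked genes. In Mrpl4 the domain began 812 and 925 bp into the gene and in Mrpl23 54 and 116 bp. In Mrpl45 it began 70 and 102 bp and in Mrps31 64 and 117 bp into the gene. The RefSeq starts of Mrpl23, Mrpl45 and Mrps31 lie 565, 793 and 891 bp downstream of the 5' end, inside the domain, and Mrpl4 has no entry in that table. For the 66 members with a single RefSeq start, measured from it, 0 domains lay wholly downstream, 31 starts (47.0%) were covered in both replicates and 16 (24.2%) in neither. All marked genes with a single RefSeq start had 2.35%, 45.1% and 29.8%. The domains of these members reached a median of 976 bp upstream and 1036 bp downstream, so that both sides were nearly even. The median summit was then 125 bp into the gene. All marked genes with a single RefSeq start reached 889.5 bp upstream and 1250 bp downstream, with a median summit at 158.5 bp.

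Peaks whose summits lay upstream in both replicates were found at 13 members (17.6%) and at 17.7% of all marked genes. At Mrpl51 the summit lay at -958 and -946 bp from the 5' end, upstream on the side of Ncapd2, whose start is 100 bp away. Mrpl51 was also among the widest and highest members, and its strongest peak lay over the partner gene. At Mrps18b the summit changed sides, from -737 bp in replicate 1 to 226 bp into the gene in replicate 2.

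Large differences between the replicates were few at these genes, while the order of the genes was only loosely shared. Replicate 2 had the higher value in 48 of 74 members (64.9%) and in 64.1% of all marked genes. The median log2 ratio of replicate 1 to replicate 2 was -0.19 in the members and -0.16 in all, a shift of similar size. A difference of more than 1.5-fold was seen in 9 members (12.2%) and in 22.5% of all marked genes, and one of more than 2-fold in 0 members and in 4.49% of all. Over the 74 members the replicates' log2 values had a Pearson r of 0.28, and over all marked genes 0.64, and the members span a narrower range. Mrpl46 and Mrps11, which share their peak, count as 2 genes here. Widths were closer, with r = 0.87 for the members and 0.92 for all.

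The 6 members with the largest ratios were Mrpl9, Mrpl40, Mrps34, Mrpl53, Mrpl35 and Mrpl52. Mrpl9 had 9.98 and 18.9, a 1.89-fold difference, and Mrpl40 had 19.4 and 10.6, 1.83-fold the other way. Mrps34 had 9.05 and 16.5, Mrpl35 had 8.92 and 15.6, and Mrpl52 had 8.89 and 15.3. Of the 6, only Mrpl40 was higher in replicate 1. The SD of these genes, 3.51 for Mrpl53 to 6.29 for Mrpl9, is larger than the distance between the quartiles of the members, so their rank is not resolved by 2 replicates.

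The promoters of the members were rich in CpG dinucleotides, as those of marked genes are. RefSeq windows of 300 bases, from 250 before the start to 50 from it, were at hand for 69 members and for 17492 protein-coding genes. The ratio of observed to expected CpG had a median of 0.818 in the members, 0.791 in the windows of marked genes and 0.259 in those of unmarked ones. It ran from 0.521 to 1.12 over the members. The share of G and C was 58.3% in the members, 61.3% in marked and 50.3% in unmarked genes.

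The NRF1, ETS and YY1 cores stood in the members' promoters more often than in other promoters. NRF1 is a known activator of nuclear genes for mitochondria, GABP is an ETS factor with the same role, and the YY1 core often lies just inside the start of housekeeping genes. The ETS core was found in 24 of 69 members (34.8%), against 20.9% of marked and 11.9% of all genes. The YY1 core was found in 12 (17.4%), against 5.24% of marked and 3.21% of all, and the NRF1 core in 8 (11.6%), against 6.16% and 3.61%. At least 1 of these 3 cores was present in 36 members (52.2%), in 29.5% of marked genes and in 17.3% of all. Both strands were searched, no ETS match overlapped a YY1 match, and these shares were not tested.

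**Figure D4:**
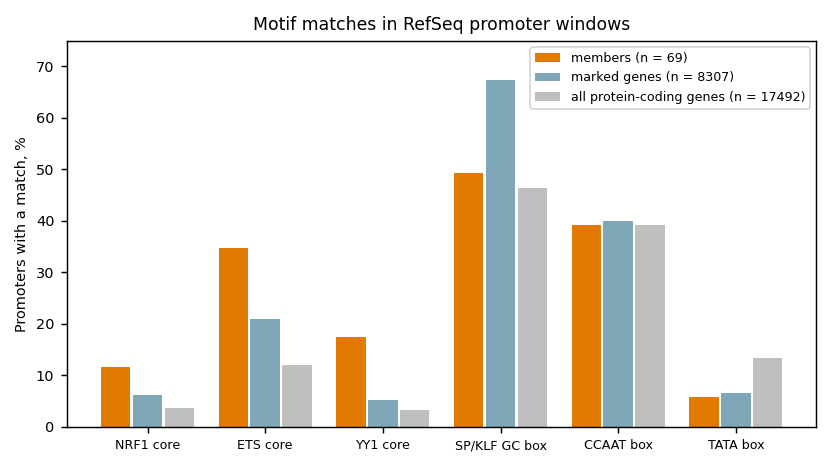
Share of RefSeq promoter windows of 300 bases that hold each motif (y axis, %) in members (n = 69), marked genes (n = 8307) and all protein-coding genes (n = 17492). ETS, YY1 and NRF1 cores were found in 34.8%, 17.4% and 11.6% of members, and the TATA box in 5.80%.

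The position of the matches differed by motif. The median lay 13 bases before the start for the ETS core, 45.5 before it for the NRF1 core and 19 after it for the YY1 core. In the printed Mrps27 stretch the ETS core begins 48 bases before and the YY1 core 14 bases after the start, and in that of Mrps18a 26 bases before and 11 after. The Mrpl32 stretch holds 4 NRF1 matches, and the overlapping pair farthest from the start forms the longest run of capitals. Mrpl32 nevertheless had a modest enrichment value, a mean of 10.8 ± 0.518.

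Of the general promoter motifs, the GC box (GGGCGG) was found in 34 of 69 members (49.3%), fewer than the 67.4% of marked genes and close to the 46.3% of all. The CCAAT box (CCAAT) was found in 27 (39.1%), against 39.9% and 39.2%. The TATA box (TATAAA) was found in 4 (5.80%), against 6.51% of marked and 13.3% of all genes. Among the marked members, the median enrichment value was 13.2 with and 12.3 without the GC box, 12.7 and 13.2 for the CCAAT box, and 14.0 and 13.1 for the TATA box, which only 4 of them hold. It was 12.8 with and 13.1 without the ETS core, 12.2 and 13.1 for the YY1 core, and 12.2 and 13.1 for the NRF1 core. A match describes the letters of a window and is not shown to be a bound site.

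Most other genes of mitochondrial translation were marked too. Of 5 ribosomal proteins that go by other symbols, all 5 were marked, with a median of 14.9. The highest were Dap3 (17.4 ± 1.45), a GTP-binding small-subunit protein, Ptcd3 (16.7 ± 5.72) and Gadd45gip1 (14.9 ± 4.26). All 14 translation factors with a gene position were marked, with a median of 13.7, led by the membrane insertase gene Oxa1l (20.4 ± 3.88), Guf1 (19.5 ± 0.715), a translocase-like GTPase, and Mtfmt (18.0 ± 7.04), which formylates the initiator tRNA. The medians of the first list rest on few genes.

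Of 25 genes for ribosome assembly and rRNA modification 22 were marked, with a median of 11.9. The highest were Mettl15 (23.4 ± 6.24), an rRNA methyltransferase, Mterf3 (18.6 ± 0.417) and Eral1 (15.2 ± 0.0315), an rRNA chaperone, and the unmarked genes were Fastkd2, Gtpbp10 and Rcc1l. The RefSeq start of Rcc1l lies 2357 bp downstream of the 5' end used, and those of Fastkd2 and Gtpbp10 lie 26 and 0 bp from it. All 20 genes for mitochondrial transcription and RNA processing were marked, with a median of 13.2, and the highest were Pnpt1 (22.3 ± 2.62), Slirp (20.1 ± 2.47) and Grsf1 (19.6 ± 6.22).

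All 17 mitochondrial aminoacyl-tRNA synthetase genes were marked, with a median of 12.2. Rars2 (21.2 ± 1.77), Fars2 (20.5 ± 3.08) and Mars2 (17.8 ± 1.07) were highest. Aars2 was lowest at 3.61 ± 0.216, but its RefSeq start lies 3317 bp downstream of the 5' end used, and read there it had 12.7 ± 2.42. The highest genes of several of these lists lay above the 18.7 of Mrpl57, the highest member.

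The cytosolic ribosomal protein genes, which build the other ribosome of the cell, were marked at 78 of 79, with a median value of 13.0, and the mitochondrial set likewise had 13.0. In replicate 1 the cytosolic set had the higher median, 13.2 against 11.9, and in replicate 2 the lower, 12.0 against 13.2. Rpl24 (24.1 ± 12.8), Rpl11 (18.8 ± 3.98) and Rpl27 (18.7 ± 0.0375) were highest, and Rps2 was unmarked, with a peak in replicate 2 alone and a RefSeq start 1942 bp downstream. Their domains were wider, a median of 2785 bp against 2143 bp. A head-to-head partner was found for 16 of 79, against 32 of 78. Of the other lists, 7 of 17 aminoacyl-tRNA synthetase genes and 9 of 25 genes for assembly and rRNA modification had one. So did 3 of 5 ribosomal proteins under other symbols, 4 of 20 genes for transcription and RNA processing and 1 of 14 translation factors. A high share was thus not particular to the members. None of these differences between lists was tested, since the lists hold genes of the same 2 samples.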

How the data were processed

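H3K4me3 ChIP-seq peaks of MEL cells in 2% DMSO (1 group, 2 biological replicates per the labels) were described. The authors deposited a peak set on mm10 for each replicate, which per the notes in the file headers comes from that replicate's alignments and shared files, a pooled set, a replicated set and an older set on mm9. Each deposited peak has a signal value on a scale that is not stated, and the authors give its q-value as a −log10 value. The aligner, peak caller and threshold are not given in the sources used here. Read counts were not used here, so depth is unknown, and no p-value was computed.

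Gene positions came from a RefSeq table of GRCm38, the assembly behind mm10, with 1 start and end per gene. Strand came from RefSeq promoter windows of GRCm38.p6 for 17492 genes and otherwise from GENCODE M1 by symbol (3649) or synonym (394), and 352 of 21887 protein-coding genes had none. Of the members, 69 had a promoter window. Exons and untranslated regions were not annotated. Overlap meant at least 1 bp. Chromosomes 1 to 19, X and Y were used. Motifs were matched exactly on both strands. Computation used Python 3.11.15 and numpy 2.4.6, and the window and domain code recovered the known answers on simulated data. The partner code was not tested in this way.

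The members and lists, and the thresholds used to count high and low values, were chosen with earlier results of these data known. Named are all unmarked members, the 10 highest and 8 lowest by value, the 8 widest and 6 narrowest, the 6 with the largest ratio between replicates, members with an uncovered 5' end, all partners, and the 3 highest and all unmarked genes of every other list. Others, such as Aars2 and the other S18 genes, were named after their values were seen. Alternatives were other windows, q-value minimums, gaps, partner distances, peak sets, each replicate alone and the peak nearest the 5' end. RefSeq starts and strand from GENCODE alone were 2 more, added after seeing the data.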

Additional observations from a re-analysis of the deposited data

How the results depend on the processing

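The number of marked members stayed between 73 and 78 under all alternatives, which were windows of 500 and 2000 bp, −log10 q minimums of 2 and 5, each replicate alone, the pooled and replicated sets, the gene span, the older mm9 set (78 of 78), RefSeq starts and strand from GENCODE alone. The share of all genes ran from 45.6% to 57.9%, the latter with the gene span, where 78 members were marked. The median enrichment value was 13.0, and 11.9 to 13.2 with 1 replicate left out, the lower value without replicate 2. It moved by less than the SD of the 2 replicates' medians under the other alternatives. With the peak nearest the 5' end in place of the strongest, it was 12.4, against 11.8 for all marked genes. The main setting had 13.0 against 13.2, so which median was the higher depends on the peak taken. The median domain width, 2143 bp, was 2034.5 bp with a −log10 q of at least 5, 2060.5 to 2134 bp with 1 replicate left out, 2061 bp in the replicated set, 1304 bp with no joining of peaks and 2215 bp with gaps of up to 3000 bp. All marked genes had medians of 1413 and 2449 bp at those gaps. The number with a head-to-head partner was 28 within 500 bp (9.20% of all genes), 34 within 2000 bp (12.2%) and 29 at RefSeq starts (10.01%). In the pooled and replicated sets, 4 of 74 members moved by over 1.5 times from the mean of the replicates. Mrpl34 moved to 17.8 and Mrpl46, Mrps11 and Mrps7 to 8.33, 8.33 and 7.70, where Mrpl46 and Mrps11 share their peak. The share of all marked genes that moved as far was not computed, and the cause was not tested. No paired analysis was possible because all samples belong to 1 group. Without read counts, no limit from depth could be given, and a gene without a peak is not shown to lack the mark.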
